A study of Mus musculus with 8 samples.

Results

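The PARP family and Dtx3l were followed as 9 named mouse genes, Parp1, Parp3, Parp8, Parp9, Parp10, Parp11, Parp12, Parp14 and Dtx3l, matched by Ensembl identifier among the 54532 genes of the deposited count tables. All 9 passed the filter on low counts, together with 14591 genes in all. The libraries were made from polyA RNA of mouse bone marrow macrophages (BMDMs), that is, cells differentiated in culture from marrow precursors, here from tibia and femur of mice aged 6 to 8 weeks and over 7 days with medium conditioned by L929 cells. There were 4 groups of 2 libraries: WT BMDMs, Trex1-/- BMDMs (Trex1-KO), and Trex1-/- BMDMs treated with the STING antagonist H151 (Trex1-KO+H151) or the STING antagonist SN-011 (Trex1-KO+SN-011). WT and untreated Trex1-KO cells received the solvent DMSO, and treatment lasted 12 h. H151 was given at 500 nM by the labels, which state no dose for SN-011, while the study's methods name the same concentration for both. Every treated group carried the Trex1 loss, so neither antagonist was measured in WT cells. Trex1-/- mice came from matings of heterozygous parents, WT mice were purchased, and both are described as C57BL/6J, so loss of Trex1 cannot be told apart from a difference between the mouse sources.

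PARP enzymes transfer ADP-ribose from NAD+ to proteins. Parp1 builds long chains at DNA breaks, whereas most other members add a single unit, and several of those are known as interferon-induced antiviral factors. Trex1 degrades cytosolic DNA; without it, DNA activates cGAS and STING, and the type I interferon that follows acts through its receptor and transcription factors of the STAT and IRF families. H151 is known to bind STING covalently and block its palmitoylation, and SN-011 to occupy the pocket for cyclic dinucleotides.

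Library totals ranged from 11845470 to 17284863 counts, and 1 count was worth 0.0582 to 0.0849 CPM (counts scaled to a fixed library size, here by the trimmed mean of M-values, TMM). The paired libraries of a group correlated at r = 0.990 to 0.991 across genes. Trex1 was listed at 0 counts in all 8 libraries, and all 1147 of its exonic bases lie within exons of Atrip, so its counts did not check the genotype. The summed level of 8 macrophage markers was 30092 to 32363 CPM in all 8 libraries, most of it from Lyz2 (20296 to 23079 CPM), and 3 of the 8 were called higher in Trex1-KO and none lower. The summed level of 6 neutrophil and myeloid progenitor markers was 6.33 and 6.37 CPM in WT and 30.6 to 52.5 CPM in the 6 Trex1-/- libraries, with 3 of 3 tested markers higher in Trex1-KO and Ly6g at 3 counts or fewer throughout. The summed level of 5 fibroblast and stromal markers was 2265 and 2069 CPM in WT and 848 to 1200 CPM in the 6 Trex1-/- libraries, with 4 of 5 lower in Trex1-KO. Dendritic cell markers summed to 1.69 to 3.70 CPM, with 2 of 3 tested higher in Trex1-KO. T and NK cell markers summed to 33.3 to 34.0 CPM in WT and 18.2 to 21.7 CPM in the Trex1-/- libraries. Nearly all of this sum was Cd4 (18.2 to 33.9 CPM), the only marker of that list tested, which was called lower in Trex1-KO. Cd3e, Cd3d and Ncr1 were at 3 counts or fewer. B cell and erythroid markers stayed under 2 CPM in sum. The part of these shifts in the results below was not tested, and in bulk libraries fewer cells of a type and less RNA per cell cannot be told apart.

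Loss of Trex1 was accompanied by higher levels of 6 of the 9 genes, Parp14, Parp11, Parp9, Parp12, Dtx3l and Parp10, by 1.70-fold to 2.49-fold. The increase was read against a background in which 9.27% of all tested genes were called higher (Trex1-KO against WT; adjusted p below 0.05, edgeR quasi-likelihood test, Benjamini-Hochberg adjustment over 14591 genes). Parp3 was called lower, against 7.11% of all tested genes, and Parp1 and Parp8 were not called. Over all genes 56.6% of the calls were higher, or 37.2% when total counts replaced TMM, and the 6 rises were called under both. The median log2 fold change of the 9 genes was 1.06, and that of all tested genes was -0.00196. With either antagonist, Parp14, Parp9, Parp12, Parp11, Dtx3l and Parp10 were lower than in untreated Trex1-KO cells, while Parp1, Parp3 and Parp8 were not called. Parp9, Parp10, Parp11, Parp12, Parp14 and Dtx3l also belong to M7core, the study's list of STING-dependent genes. The study took as M7core those genes of a module that Irf2 targets and a cGAS agonist induced in mouse embryonic fibroblasts. It focused on that module for its rise in Trex1-/- BMDMs and hearts, and described the list in these same libraries. The shared direction of the 6 genes is therefore not independent of that list.

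**Figure D1:**
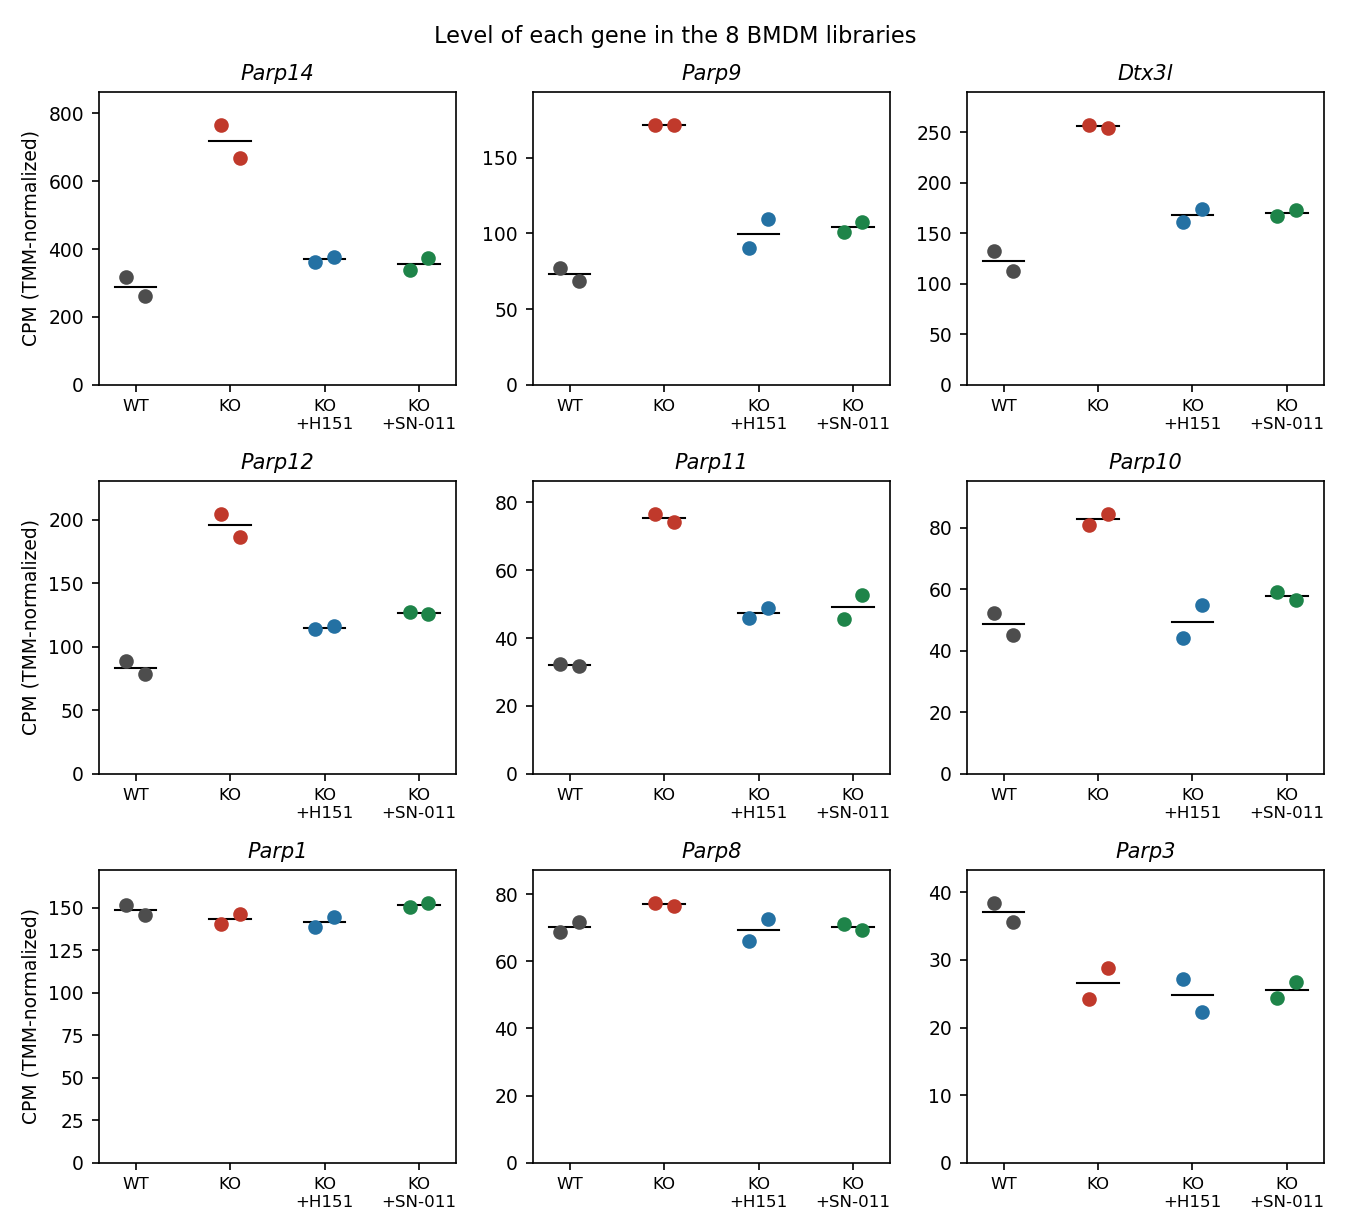
Level of each gene in CPM (TMM-normalized, linear axis from 0) in the 8 libraries, 2 per group, with points for libraries and bars for group means. In the upper 6 panels both Trex1-KO libraries lie above all other libraries, whereas the 3 lower panels show Parp1 and Parp8 near the same level in all groups and Parp3 lower in every Trex1-/- library than in WT.

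The largest member response was that of Parp14, a mono-ADP-ribosyltransferase with macrodomains that is known as a cofactor of STAT6. Parp14 stood at 316 and 261 CPM in WT, 767 and 668 CPM in untreated Trex1-KO, 363 and 378 CPM with H151, and 337 and 374 CPM with SN-011. The lower of the Trex1-KO libraries was well above the highest of the other 6, and both treated groups lay above both WT libraries. The log2 fold change was 1.31 ± 0.09 (SE) in Trex1-KO against WT (adjusted p = 2.2e-07, edgeR quasi-likelihood test), -0.95 ± 0.09 with H151 against Trex1-KO (adjusted p = 2.9e-05) and -1.01 ± 0.09 with SN-011 against Trex1-KO (adjusted p = 2.94e-05).

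Parp9 and Dtx3l encode partners of 1 complex, in which Parp9 carries macrodomains that bind ADP-ribose and Dtx3l is a ubiquitin ligase of the Deltex family. Parp9 measured 77.1 and 68.7 CPM in WT, 172 and 171 CPM in untreated Trex1-KO, 90.2 and 109 CPM with H151, and 101 and 107 CPM with SN-011. Dtx3l measured 133 and 113 CPM in WT, 258 and 254 CPM in untreated Trex1-KO, 162 and 174 CPM with H151, and 167 and 173 CPM with SN-011. In both genes the Trex1-KO libraries were the highest, the WT libraries the lowest, and the H151 and SN-011 libraries overlapped each other. Relative to WT, Parp9 rose by 1.24 ± 0.09 (SE, log2; adjusted p = 2.97e-07) and Dtx3l by 1.06 ± 0.08 (adjusted p = 3.15e-07, edgeR quasi-likelihood test). Relative to Trex1-KO, the log2 change with H151 was -0.78 ± 0.09 for Parp9 and -0.61 ± 0.07 for Dtx3l (adjusted p = 0.000121 and 0.000296, edgeR). The change with SN-011 was -0.72 ± 0.09 for Parp9 and -0.59 ± 0.07 for Dtx3l (adjusted p = 0.000247 and 0.000426, edgeR). Parp9 and Dtx3l share 458 exonic bases on opposite strands, 9.40% of the Parp9 exons and 8.00% of the Dtx3l exons, and whether the counting used strand there is not given in the sources used here, although the study's methods describe a strand-specific library protocol.

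Parp12, a mono-ADP-ribosyltransferase with CCCH zinc fingers, measured 88.4 and 78.4 CPM in WT, 205 and 187 CPM in untreated Trex1-KO, 114 and 116 CPM with H151, and 127 and 125 CPM with SN-011. The Trex1-KO libraries were again the highest, and the 4 groups did not overlap. The log2 fold change was 1.23 ± 0.07 (SE) in Trex1-KO against WT (adjusted p = 5.53e-08, edgeR quasi-likelihood test). It was -0.77 ± 0.07 with H151 (adjusted p = 2.86e-05, edgeR) and -0.63 ± 0.07 with SN-011 (adjusted p = 0.000153, edgeR), both against Trex1-KO.

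Parp11, another mono-ADP-ribosyltransferase, measured 32.3 and 31.7 CPM in WT, 76.7 and 74.4 CPM in untreated Trex1-KO, 45.9 and 48.8 CPM with H151, and 45.7 and 52.6 CPM with SN-011. Both treated groups lay between WT and Trex1-KO without overlapping either, and overlapped each other. The log2 fold change was 1.24 ± 0.09 (SE) in Trex1-KO against WT (adjusted p = 2.2e-07, edgeR quasi-likelihood test), -0.67 ± 0.08 with H151 (adjusted p = 0.000294) and -0.63 ± 0.08 with SN-011 (adjusted p = 0.000582) against Trex1-KO.

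The Parp11 promoter is shown because it was the only one among the members' RefSeq windows (assembly GRCm38.p6) with a match to a motif searched. The table of promoter windows, each 250 bases before to 50 after a start, held 7 windows for 6 of the 9 genes, Parp1, Parp3, Parp8, Parp11, Parp12 and Dtx3l. The letters GAAA, any 2 bases, GAAA, a core of interferon-stimulated response elements, and TTCNNNGAA, a core bound by STAT family factors, were searched on both strands and matched 3.44% and 8.30% of all 32851 windows. Parp11 has windows at 2 starts, and the bases before each start that lie outside annotated exons are printed, with the match to the paired GAAA motif, read on the reverse strand, in capitals.
Parp11 start nearer the 5' end, chr6:127446590-127446839, plus strand: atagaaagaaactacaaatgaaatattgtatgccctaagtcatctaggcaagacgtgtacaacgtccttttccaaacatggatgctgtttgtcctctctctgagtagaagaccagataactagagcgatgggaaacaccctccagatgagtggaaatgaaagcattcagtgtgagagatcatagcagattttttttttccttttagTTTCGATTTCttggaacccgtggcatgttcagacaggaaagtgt
Parp11 start further downstream, chr6:127453377-127453619, plus strand: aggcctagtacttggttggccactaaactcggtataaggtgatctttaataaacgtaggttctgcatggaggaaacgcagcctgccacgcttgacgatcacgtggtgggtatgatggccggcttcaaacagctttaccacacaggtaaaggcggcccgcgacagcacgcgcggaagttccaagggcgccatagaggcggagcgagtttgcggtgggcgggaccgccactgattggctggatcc
In the first window the paired GAAA match spans positions -44 to -35 from the start, and a TTCNNNGAA match at -37 to -29 overlaps it. The second window held neither. A match describes letters only, and no binding was measured.

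Parp10, a mono-ADP-ribosyltransferase, had the smallest rise of the 6 genes. It measured 52.2 and 45.1 CPM in WT, 80.7 and 84.6 CPM in untreated Trex1-KO, 44.0 and 55.0 CPM with H151, and 59.0 and 56.4 CPM with SN-011. The H151 libraries spanned the WT libraries, and the SN-011 libraries lay just above both. The log2 fold change was 0.77 ± 0.10 (SE) in Trex1-KO against WT (adjusted p = 0.000108, edgeR quasi-likelihood test) and -0.74 ± 0.10 with H151 against Trex1-KO (adjusted p = 0.000772). With SN-011 against Trex1-KO it was -0.52 ± 0.10 (adjusted p = 0.0113, edgeR), a call that was lost without Trex1-KO replicate 2 (adjusted p = 0.0577), SN-011 replicate 1 (0.120) or SN-011 replicate 2 (0.163). Parp10 shares 205 exonic bases, 4.80% of its exons, with Plec.

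Parp1, the founding member that builds ADP-ribose chains at DNA breaks, measured 152 and 146 CPM in WT, 140.4 and 146 CPM in untreated Trex1-KO, 139 and 145 CPM with H151, and 150.4 and 153 CPM with SN-011. WT and Trex1-KO overlapped, and the log2 fold change of -0.05 had a 95% interval of -0.18 to 0.08 (adjusted p = 0.635, edgeR quasi-likelihood test). Parp8, a less studied member, measured 68.7 and 71.8 CPM in WT, 77.5 and 76.4 CPM in untreated Trex1-KO, 65.9 and 72.7 CPM with H151, and 71.0 and 69.2 CPM with SN-011. Both Trex1-KO libraries of Parp8 were above all 6 others, but the difference to WT, a log2 fold change of 0.13 with a 95% interval of -0.02 to 0.28, did not pass the test (adjusted p = 0.259, edgeR). Both Trex1-KO libraries were above both WT libraries in 28.6% of all tested genes.

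**Figure D2:**
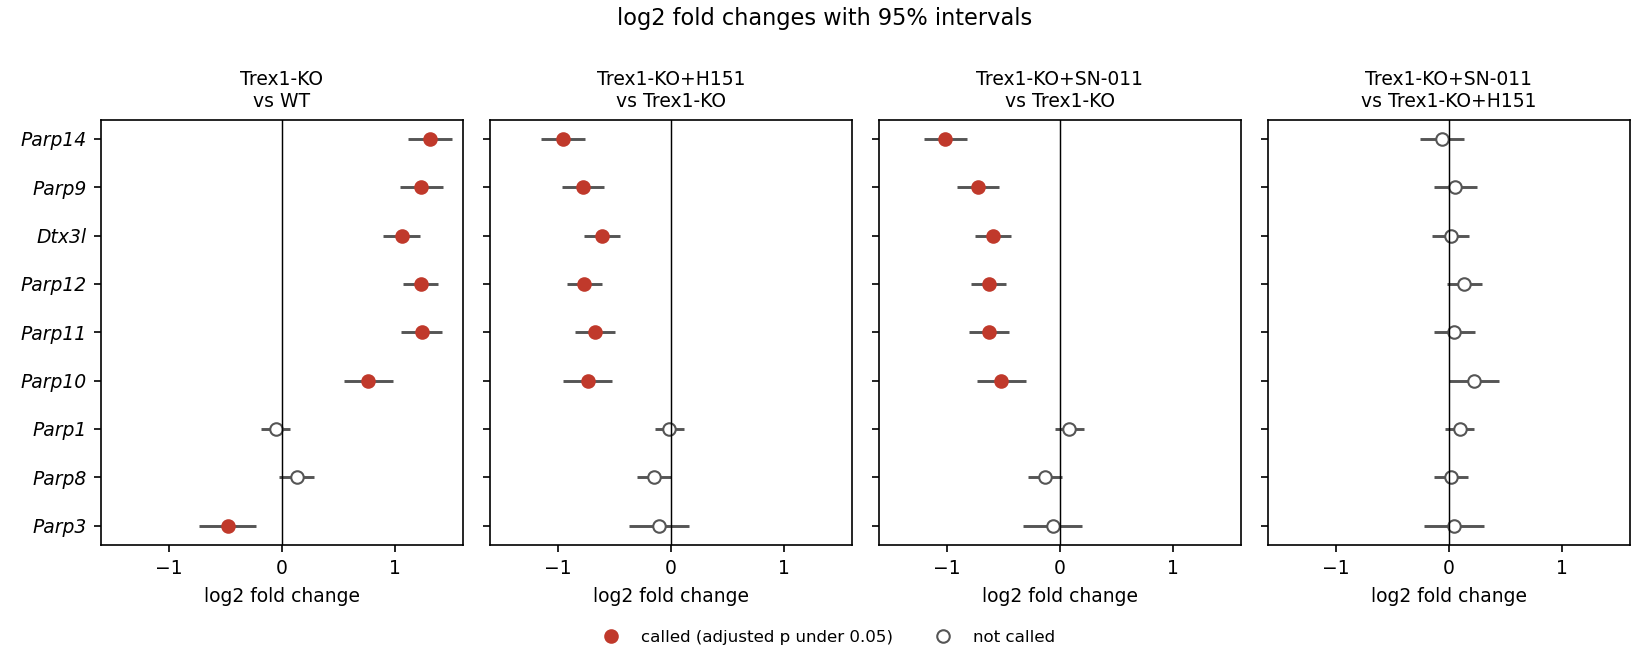
log2 fold change of each gene (points) with its 95% interval (lines) in 4 comparisons, where red points were called at adjusted p below 0.05 by edgeR's quasi-likelihood test and open points were not. The upper 6 genes lie between 0.77 and 1.31 in Trex1-KO against WT and between -0.52 and -1.01 with the antagonists, and all 9 intervals include 0 in the comparison of SN-011 with H151.

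The antagonists were compared with untreated Trex1-KO cells in libraries that serve both comparisons, so their values are not independent of each other, nor of the comparison with WT. Called lower were 6 of the 9 genes with H151, against 1.84% of all tested genes, and 6 of the 9 with SN-011, against 2.22%. None of the 9 was called higher, against 0.384% of all tested genes with H151 and 0.110% with SN-011. In these 6 genes both treated libraries lay below both Trex1-KO libraries with each antagonist, as they did in 17.9% of all tested genes with H151 and 21.6% with SN-011. Parp8 libraries were also all below Trex1-KO with each antagonist, with log2 fold changes of -0.15 (95% interval -0.30 to 0.00) and -0.13 (95% interval -0.29 to 0.02). Leaving out any 1 library kept 6 calls with H151 and 5 or 6 with SN-011, the exception being Parp10.

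SN-011 and H151 were then compared directly, at the concentration that the methods give for both and at the same 12 h. The sample numbers of the SN-011 libraries form a set apart from those of the other libraries. Whether both sets were prepared or sequenced together is not given in the sources used here. In every SN-011 comparison the antagonist therefore cannot be told apart from a difference between the sets. None of the 9 genes was called different between SN-011 and H151 in either direction by edgeR's quasi-likelihood test. Over all tested genes 23 were called, or 0.158%. None of the 9 reached an unadjusted p below 0.05 either, a level that 8.91% of all tested genes reached. The widest gap was in Parp10, 0.22 on the log2 scale with a 95% interval from -0.0038 to 0.44 (adjusted p = 0.564, edgeR), the SN-011 libraries lying above both H151 libraries. For Parp14 the difference was -0.06 (95% interval -0.25 to 0.13), for Parp9 0.06 (-0.13 to 0.24), for Dtx3l 0.02 (-0.15 to 0.18), for Parp12 0.13 (-0.02 to 0.29) and for Parp11 0.05 (-0.14 to 0.23). These intervals leave room for differences of that size, and the genes are not shown to respond alike.

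Against WT, 5 of the 6 genes were still called higher in antagonist-treated cells. The background was 6.79% of all tested genes called higher with H151 and 6.18% with SN-011. With H151 the log2 fold change against WT was 0.57 ± 0.09 (SE) for Parp11, 0.46 ± 0.07 for Parp12, 0.46 ± 0.09 for Parp9, 0.45 ± 0.08 for Dtx3l and 0.36 ± 0.09 for Parp14. With SN-011 it was 0.61 ± 0.09 for Parp11, 0.60 ± 0.07 for Parp12, 0.51 ± 0.09 for Parp9, 0.47 ± 0.08 for Dtx3l and 0.30 ± 0.09 for Parp14. Parp10 was not called, at 0.03 (95% interval -0.19 to 0.26) with H151 and 0.25 (0.03 to 0.47) with SN-011, where its edgeR adjusted p was 0.155 but fell to 0.0381 when these groups were fitted alone. The Parp14 call was the least firm. With SN-011 its adjusted p of 0.0454 (edgeR) became 0.0502 with RLE size factors, 0.107 with total counts only, 0.409 without WT replicate 2, 0.0749 without SN-011 replicate 1 and 0.367 without SN-011 replicate 2. With H151, the calls of Parp14 (adjusted p = 0.0174) and Parp9 (adjusted p = 0.00376) were lost without WT replicate 2, at 0.216 and 0.0679 by edgeR. Without that library the Parp14 log2 fold change against WT fell to 0.22 with H151 and 0.16 with SN-011, and without H151 replicate 2 that of Parp9 with H151 was 0.30.

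Parp3, a mono-ADP-ribosyltransferase activated by DNA breaks, went the other way. It measured 38.5 and 35.7 CPM in WT, 24.2 and 28.8 CPM in untreated Trex1-KO, 27.2 and 22.3 CPM with H151, and 24.3 and 26.7 CPM with SN-011. All 6 Trex1-/- libraries were below both WT libraries, and the Trex1-/- groups overlapped one another. The log2 fold change against WT was -0.48 ± 0.12 (SE) in Trex1-KO (adjusted p = 0.0119), -0.59 ± 0.12 with H151 (adjusted p = 0.00492) and -0.54 ± 0.12 with SN-011 (adjusted p = 0.00763), all by edgeR's quasi-likelihood test and against backgrounds of 7.11%, 5.04% and 5.57% of all tested genes called lower. The Trex1-KO call was lost without WT replicate 1 (adjusted p = 0.0957) or Trex1-KO replicate 1 (0.101), the H151 call without WT replicate 1 (0.0542), and the SN-011 call without WT replicate 1 (0.0766) or SN-011 replicate 1 (0.108). Relative to untreated Trex1-KO cells, Parp3 moved by -0.11 with H151 (95% interval -0.37 to 0.16) and -0.06 with SN-011 (-0.33 to 0.20). The fibroblast and stromal marker sum was likewise lower in all 6 Trex1-/- libraries than in WT, and its part in the Parp3 difference was not tested.

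Parp3 lies on chromosome 9 at 106470322 to 106476949 (GRCm38), 2.58 Mb from Trex1. Of its 27 tested neighbours starting within 1000 kb, 9 were called lower and 2 higher in Trex1-KO against WT, 40.7% of them, where 16.4% of all tested genes were called. The largest fall was that of Rpl29, a ribosomal protein gene 38.8 kb from Parp3, from a WT mean of 283 CPM to a Trex1-KO mean of 3.72 CPM (log2 fold change -6.26, adjusted p = 2.11e-13, edgeR). Rpl29 has near-identical pseudogenes that can share its reads, and their part in this fall was not tested. Col6a6, a collagen VI gene, was called higher at mean levels of 0.144 CPM (WT) and 1.44 CPM (Trex1-KO; adjusted p = 0.0023, edgeR). Its WT mean lies below the level of 3 counts (0.203 to 0.221 CPM in the WT libraries), so the size of this rise is not firm, and the fitted log2 fold change ranged from 2.65 to 4.23 over the alternatives. The other gene called higher was Tlr9, a DNA sensor of endosomes (log2 fold change 0.26, adjusted p = 0.0393, edgeR), where the adjusted p reached 0.244 over the alternatives. All called neighbours started on the side of Parp3 away from Trex1. With each antagonist 1 of the 27 neighbours (3.70%) was called lower against Trex1-KO, close to the 1.84% (H151) and 2.22% (SN-011) of all tested genes. It was again Tlr9 (log2 fold change -0.52 with H151 and -0.58 with SN-011, adjusted p = 0.00245 and 0.000942, edgeR). Col6a6 and Tlr9 were named after their values were seen. A change in Parp3 with loss of Trex1 cannot be told apart from one that comes with the chromosome carrying the Trex1 mutation.

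Parp14, Dtx3l and Parp9 lie together on chromosome 16, within 139.7 kb of each other (GRCm38). Of the 9 other tested genes starting within 500 kb of Dtx3l, none was called higher in Trex1-KO (9.27% of all tested genes) and 1 was called lower (7.11% of all tested genes, so 1 of 9 is near the background). The 1 gene was Pdia5, a protein disulfide isomerase gene (log2 fold change -0.84, adjusted p = 0.00959, edgeR). This fall was named after its value was seen, and its adjusted p was between 0.000725 and 0.0881 over the alternatives. None of the 9 was called with either antagonist by edgeR at the adjusted threshold, where 1.84% (H151) and 2.22% (SN-011) of all tested genes were called lower. Kpna1, an importin gene that starts 39.6 kb from Dtx3l, had mean levels of 54.8 CPM (WT) and 51.0 CPM (Trex1-KO).

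**Figure D3:**
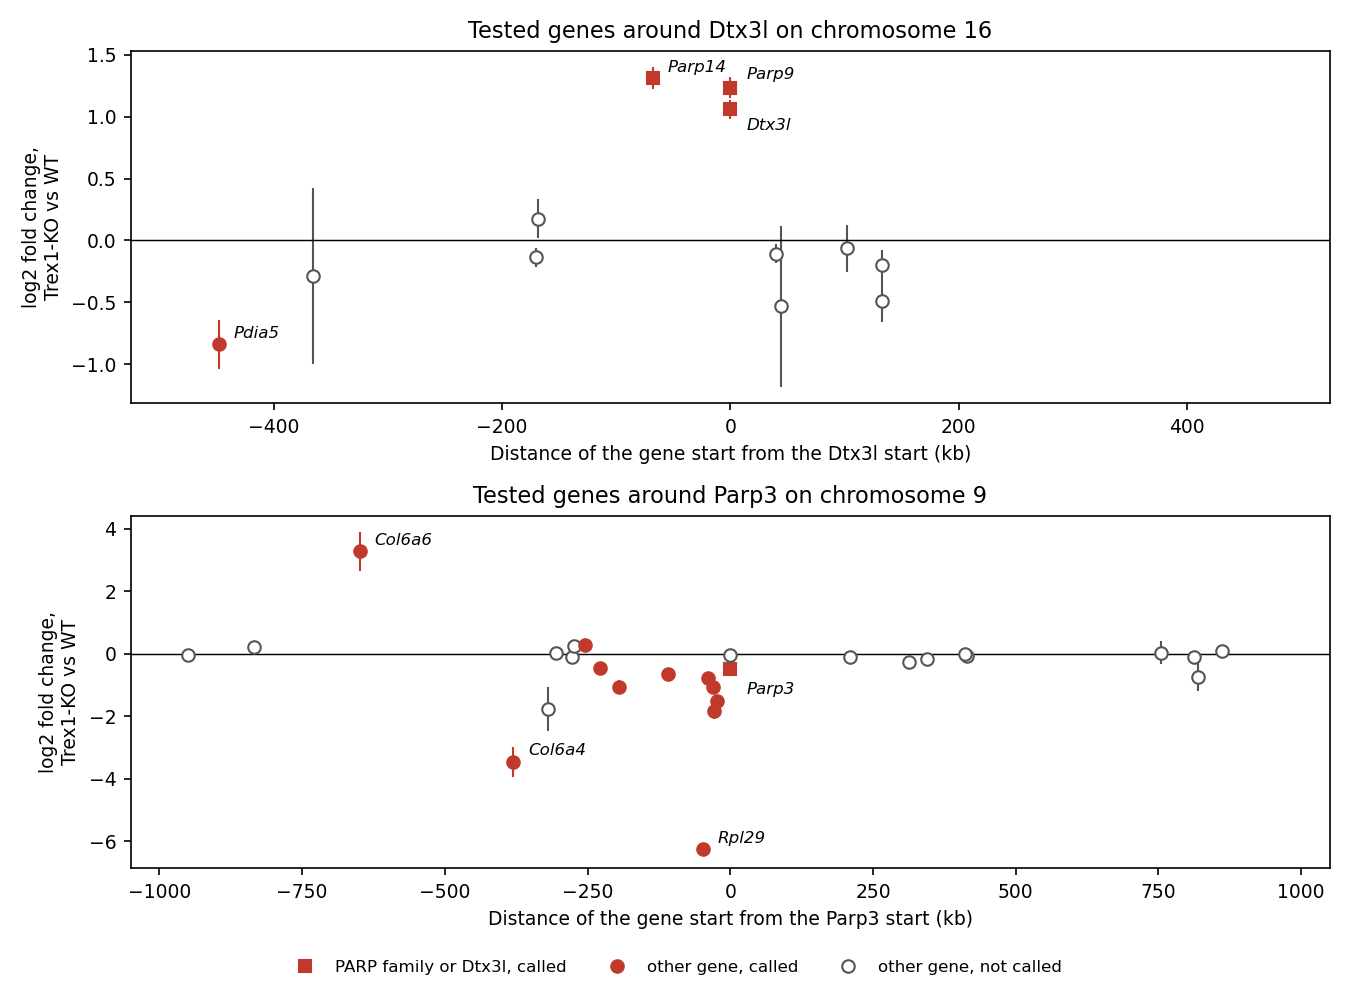
log2 fold change in Trex1-KO against WT (points, bars are standard errors) of tested genes by the distance of their starts from the Dtx3l start (upper panel, within 500 kb) and the Parp3 start (lower panel, within 1000 kb), in kb. Filled red marks were called and squares mark PARP genes and Dtx3l. In the upper panel the 3 squares lie above 1 and all other genes below 0.2, and in the lower panel the called genes, Rpl29 the lowest at -6.26, lie on the left of Parp3.

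Levels were compared between genes only after division by exonic length. In WT the order in CPM per kb of exon was Parp14 (31.0 ± 4.21, SD, n = 2), Parp1 (28.1 ± 0.799), Dtx3l (21.5 ± 2.48), Parp12 (20.9 ± 1.77), Parp9 (14.96 ± 1.21), Parp10 (11.4 ± 1.18), Parp3 (10.0 ± 0.544), Parp8 (7.91 ± 0.241) and Parp11 (4.56 ± 0.0598). Within that order the libraries of Parp14 and Parp1 overlapped, as did those of Dtx3l and Parp12. In Trex1-KO the order was Parp14 (77.1 ± 7.51), Parp12 (49.0 ± 3.24), Dtx3l (44.7 ± 0.438), Parp9 (35.2 ± 0.0608), Parp1 (27.1 ± 0.772), Parp10 (19.3 ± 0.640), Parp11 (10.8 ± 0.237), Parp8 (8.67 ± 0.0845) and Parp3 (7.17 ± 0.879), with no overlap between neighbours. Parp1 thus moved from rank 2 to rank 5 while its own length-scaled level stayed between 26.2 and 28.9 CPM per kb in all libraries, and Parp11 and Parp3 exchanged the lowest rank. With H151 and with SN-011, Parp14 stayed first, at 39.8 ± 1.154 and 38.2 ± 2.76 CPM per kb (SD, n = 2), and Parp3 last, at 6.69 ± 0.939 and 6.89 ± 0.449, overlapping Parp11 in both. Dividing by exonic bases that no other gene covers, a setting added after the data were seen, let Dtx3l and Parp12 change places with SN-011 (32.3 and 31.6 CPM per kb) and overlap in Trex1-KO (48.6 and 49.0).

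**Figure D4:**
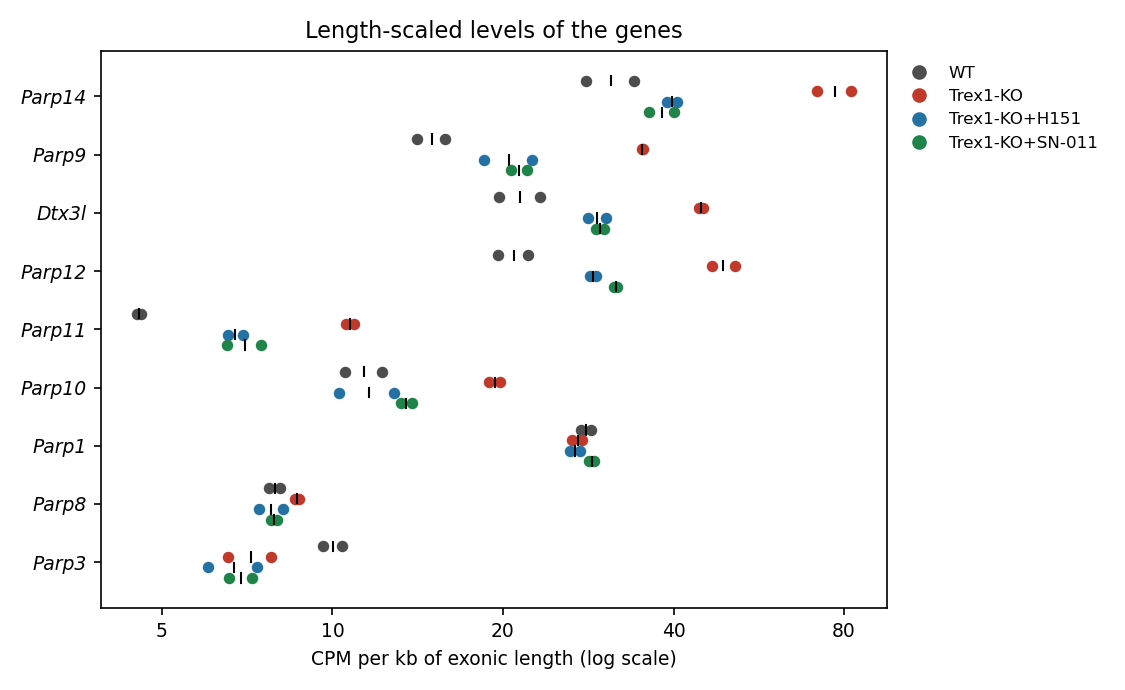
Level of each gene in CPM per kb of exonic length (logarithmic axis) in the 8 libraries, with points for libraries coloured by group and bars for group means. Parp14 is highest in every group and, between WT and Trex1-KO, Parp14, Parp9, Dtx3l, Parp12, Parp11 and Parp10 shift to the right while Parp1 and Parp8 keep their place.

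Among 8 other PARP genes, Parp2, Parp4, Parp6, Parp16, Tiparp, Zc3hav1, Tnks and Tnks2, 1 was called higher in Trex1-KO and none lower, both against WT, with a median log2 fold change of 0.11. Over all tested genes 9.27% were called higher, so 1 of 8 is near the background. The one called was Zc3hav1, a gene of M7core that encodes the zinc-finger antiviral protein that binds viral RNA. Zc3hav1 measured 152 and 135 CPM in WT, 226 and 217 CPM in untreated Trex1-KO, 167 and 167 CPM with H151, and 159 and 154 CPM with SN-011. It was highest in both Trex1-KO libraries, with both treated groups above WT, and changed by 0.63 ± 0.07 (SE, log2) with Trex1 loss, -0.41 ± 0.07 with H151 and -0.50 ± 0.07 with SN-011 against Trex1-KO (adjusted p = 1.4e-05, 0.00302 and 0.000582, edgeR). With H151 against WT 2 of the 8 were called higher, where 6.79% of all tested genes were. Tiparp, a target of the aryl hydrocarbon receptor, was higher by 0.36 (adjusted p = 0.00626) and Zc3hav1 by 0.22 (adjusted p = 0.0435, edgeR). Neither call held under every alternative, and that of Zc3hav1 was lost with total counts only (adjusted p = 0.143, edgeR). Without WT replicate 2 the Zc3hav1 difference was 0.13 (log2). With SN-011 against WT none of the 8, Zc3hav1 included, was called higher, where 6.18% of all tested genes were. Parp4, the vault PARP, belongs to M7core too, yet was not called, at 70.7 and 62.3 CPM in the WT libraries and 76.1 and 77.8 CPM in the Trex1-KO libraries.

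Of the other Deltex ligases, 3 of 4 were tested (Dtx2, Dtx3 and Dtx4), and none was called in Trex1-KO against WT, with a median log2 fold change of 0.12. In that comparison 16.4% of all tested genes were called in either direction. With H151 the share of all tested genes called higher was 0.384% against Trex1-KO and 6.79% against WT. Dtx4 was called higher with H151, by 0.31 ± 0.07 (SE, log2) against Trex1-KO and 0.48 ± 0.07 against WT (adjusted p = 0.0239 and 0.000274, edgeR), and the adjusted p of the former reached 0.197 over the alternatives. Among genes that remove ADP-ribose or its chains, 8 of 9 were tested and 1 was called higher in Trex1-KO, again near the background of 9.27%, the phosphohydrolase gene Nudt16 (0.35 ± 0.10, SE, log2; adjusted p = 0.0295, edgeR), where the adjusted p reached 0.208 over the alternatives. Nudt16 was also called higher than WT with H151 (0.43) and SN-011 (0.40), with adjusted p reaching 0.0990 and 0.120 over the alternatives. Parg, Adprhl2, Adprh, Macrod1, Macrod2, Oard1 and Enpp1 were not called in any of these comparisons.

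Of 8 cofactor and repair partners of Parp1 and Parp2, 1 was called, near the 9.27% of all tested genes called higher, namely Timeless, a replication fork protein that binds Parp1. Timeless was low, at 4.196 and 3.999 CPM in WT, 7.62 and 8.05 CPM in untreated Trex1-KO, 3.58 and 4.30 CPM with H151, and 4.25 and 4.84 CPM with SN-011. Its Trex1-KO libraries were above all others, with a log2 fold change of 0.94 ± 0.19 (SE) against WT (adjusted p = 0.00385, edgeR). The change against Trex1-KO was -0.98 ± 0.20 with H151 and -0.80 ± 0.19 with SN-011 (adjusted p = 0.0143 and 0.0467, edgeR), with adjusted p reaching 0.127 and 0.419 over the alternatives. Hpf1, Xrcc1, Lig3, Aplf, Chd1l, H2afy and Polb were not called.

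NAD+ is the substrate of catalytically active PARP enzymes, and 4 of 10 tested genes of NAD+ supply and use were called higher in Trex1-KO, where 9.27% of all tested genes were. Nampt, the rate-limiting enzyme of NAD+ salvage, measured 190.1 and 182 CPM in WT, 260.1 and 258 CPM in untreated Trex1-KO, 204 and 208 CPM with H151, and 213 and 207 CPM with SN-011. Its log2 change was 0.48 ± 0.06 (SE) with Trex1 loss, -0.33 ± 0.06 with H151 and -0.30 ± 0.06 with SN-011 against Trex1-KO (adjusted p = 4.14e-05, 0.00452 and 0.00872, edgeR), the last reaching 0.151 over the alternatives. Nadk, which phosphorylates NAD+ to NADP+, changed by 0.36, -0.41 and -0.47 in the same order (adjusted p = 0.00748, 0.0129 and 0.0056, edgeR), with adjusted p reaching 0.124, 0.0804 and 0.109. Without WT replicate 2 its change with Trex1 loss was 0.20 (log2). The NAD+ glycohydrolase genes Cd38 and Bst1 were higher in Trex1-KO by 0.98 and 1.20 (adjusted p = 0.00875 and 0.0015, edgeR), that of Cd38 reaching 0.127 over the alternatives. Bst1 was called above WT with H151 (1.10) and SN-011 (1.45), the former reaching an adjusted p of 0.0516 over the alternatives, and neither gene was called lower with an antagonist.

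Among 10 interferon signal factors, 6 were called higher in Trex1-KO and none lower, with a median log2 fold change of 0.35, and 4 were called lower with each antagonist. The shares over all tested genes were 9.27% higher in Trex1-KO, 1.84% lower with H151 and 2.22% lower with SN-011. Stat2, Irf7, Irf1 and Irf2 belong to M7core, so their direction is not independent of that list. Stat2, a signal transducer of the interferon receptor, rose by 1.57 ± 0.07 (SE, log2; adjusted p = 3.24e-09, edgeR). Irf7, the factor that amplifies interferon production, rose by 2.62 ± 0.12 (adjusted p = 7.16e-09, edgeR). Irf9, Irf1 and Irf2 rose by 0.61, 0.64 and 0.46, and Ifnar2, a receptor chain, by 0.24, its adjusted p of 0.00881 (edgeR) reaching 0.101 over the alternatives. With H151 against Trex1-KO the log2 change was -1.05 for Stat2, -0.93 for Irf7, -0.57 for Irf1 and -0.41 for Irf9. With SN-011 it was -0.98 for Stat2, -0.75 for Irf7, -0.62 for Irf1 and -0.25 for Irf2, the adjusted p of Irf7 and Irf2 reaching 0.0793 and 0.315 over the alternatives. Against WT, Stat2, Irf7, Irf2 and Ifnar2 were still called higher with H151, and these and Irf9 with SN-011. The shares of all tested genes called higher against WT were 6.79% with H151 and 6.18% with SN-011. The highest adjusted p over the alternatives was 0.135 and 0.239 for Irf2 and 0.128 and 0.150 for Ifnar2, with H151 and SN-011.

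**Figure D5:**
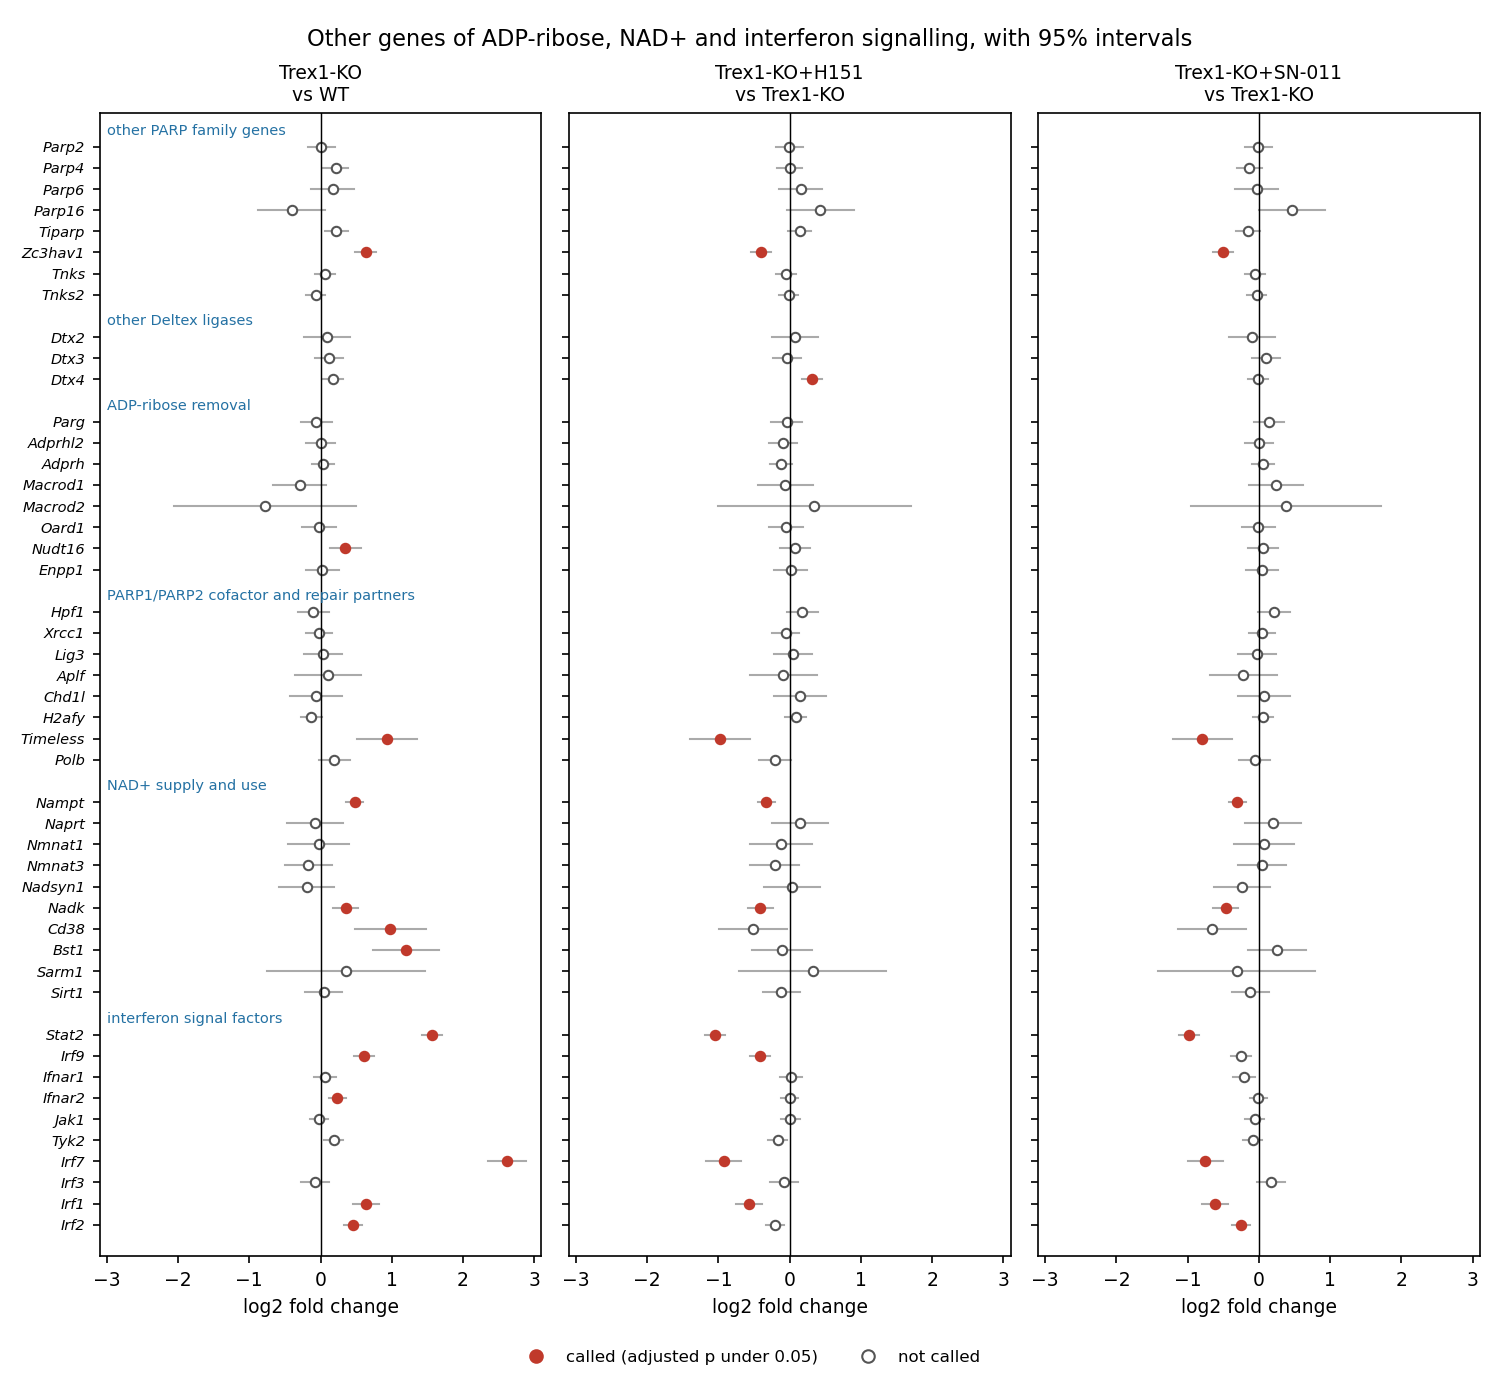
log2 fold change (points) with 95% interval (lines) of the tested genes of 6 lists in Trex1-KO against WT and in each antagonist group against Trex1-KO, where red points were called at adjusted p below 0.05 by edgeR's quasi-likelihood test. Most genes of ADP-ribose removal and repair lie near 0, while Zc3hav1 (0.63), Nampt (0.48), Stat2 and Irf7 (2.62) lie to the right in the first panel.

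For each gene called in Trex1-KO against WT, the 3 genes most like it were taken by Pearson correlation of log2 CPM over the 8 libraries, among 10651 genes whose mean log2 CPM reached 2. The libraries fall into groups that differ in these genes, so a high r mainly reflects the shared pattern over groups and carries no test. Nearest to Parp9 were Ifih1, Ifi35 and Slfn5 (r = 0.998, 0.997 and 0.997), and nearest to Dtx3l were Ddx58, Trim30a and Oas1a (r = 0.996 each). Nearest to Parp12 were Slfn3, Slfn8 and Lgals9 (r = 0.999, 0.998 and 0.998), and nearest to Parp14 were Slfn9, Dcp2 and Ifit1 (r = 0.991, 0.989 and 0.989). Nearest to Parp11 were Tmcc3, Ube2l6 and Sp100 (r = 0.997, 0.996 and 0.996). Ifih1 and Ddx58 encode cytosolic RNA sensors, and Oas1a, Ifit1 and Trim30a are known interferon-induced genes. Parp10 paired with another set, Zmym3, Tpst1 and Cdkn1a (r = 0.984, 0.980 and 0.976). Genes most like Parp3 included H19, an imprinted noncoding RNA gene, and Mme, which encodes the peptidase neprilysin (r = 0.963 and 0.962).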

How the data were processed

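RNA-seq counts of 8 BMDM libraries were analysed, 2 per group, grouped by the labels. The deposited values are raw counts per Ensembl gene that the authors made from paired reads: the study's methods name Trimmomatic, hisat2 and featureCounts on uniquely mapped pairs, whereas the submitters' processing notes name HISAT2, HTSeq and mm10. The methods also describe strand-specific libraries, while tool versions and the strand setting of the counting are not given in the sources used here. Symbols, coordinates and exonic lengths came from GENCODE M21 (GRCm38), and promoter windows from RefSeq GRCm38.p6.

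Counts were filtered with filterByExpr (14591 of 54532 genes kept), scaled by TMM and fitted in edgeR 4.0.16 (R 4.3.3) with 1 mean per group over all 8 libraries. Groups were compared by the two-sided quasi-likelihood test, p-values were adjusted over the 14591 genes (Benjamini-Hochberg), and genes below 0.05 were called. Fold changes are log2, CPM used TMM, and the common biological coefficient of variation was 0.0656. The fit was tested on simulated data. Intervals are 95% intervals from the fit. The study describes the 2 libraries of a group as independent experiments. Whether they came from separate animals is not given in the sources used here, so p-values measure the spread between these libraries. Library totals of 11845470 to 17284863 counts limit genes of a few CPM most.

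The alternatives were RLE size factors, total counts only, DESeq2 1.42.0, edgeR's exact test, other filters on low counts, only the 2 groups compared, a replicate block and leaving out each library. The members, gene lists and markers were chosen with earlier results of these data known. Genes named are the members, every called gene of the lists, the largest rise and fall near Parp3 and the 3 genes most like each called member. Tlr9, Pdia5, Kpna1 and Parp4 were added after their values were seen. Values of 1 gene of the interferon list, left out of its counts, and of 1 gene most like Parp3 are not reported here.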

Additional observations from a re-analysis of the deposited data

How the results depend on the processing

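The 6 genes higher in Trex1-KO and lower with H151 kept these calls under every alternative run, as did those lower with SN-011 except Parp10, which is given above. The replicate numbers of the titles were not taken as pairs, since not every comparison passed 0.1: the deviations of same-numbered libraries correlated at 0.06 (Trex1-KO and WT), 0.19 (Trex1-KO+H151 and Trex1-KO) and -0.01 (Trex1-KO+SN-011 and Trex1-KO), and no label says what a number marks. With the replicate block the count of genes called between SN-011 and H151 went from 23 to 44, and it was 38 with DESeq2, 84 with the exact test and 266 with the filter at 1 count. That filter gave 525 calls with H151 and 679 with SN-011 against Trex1-KO, where 325 and 340 were called. With total counts only, the share of called genes that were higher in Trex1-KO than in WT was 37.2% against 56.6%, and the median of all tested genes moved to -0.09 on the log2 scale. The cause was not tested. Dividing by unique exonic length, added after the data were seen, changed 2 positions in the order of levels.

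Leaving out each library in turn gave 1556 to 2651 called genes in Trex1-KO against WT, 131 to 493 with SN-011 against Trex1-KO, 2 to 291 with SN-011 against H151, 971 to 1790 with H151 against WT and 909 to 1933 with SN-011 against WT. Parp3 accounted for 0 to 1 members called lower against WT in each of the 3 Trex1-/- groups, and 3 to 5 members were called higher with H151 against WT. Direction turned only in differences near 0 that were not called. With total counts only, Parp1 became 0.00972 with H151 against Trex1-KO and -0.0278 with SN-011 against WT, and Parp10 became -0.0293 with H151 against WT. Over the libraries left out, the log2 fold change with H151 against Trex1-KO was -0.0458 to 0.0170 for Parp1 and -0.252 to 0.0332 for Parp3, and with SN-011 against Trex1-KO it was -0.179 to 0.0687 for Parp3. With SN-011 against H151 it was -0.100 to 0.190 for Parp3, -0.0485 to 0.0895 for Parp8, -0.0737 to 0.203 for Parp9, -0.0497 to 0.147 for Parp11, -0.133 to 0.0102 for Parp14 and -0.0338 to 0.0696 for Dtx3l. Against WT it was -0.102 to 0.0364 for Parp8 and -0.152 to 0.168 for Parp10 with H151, and -0.00851 to 0.0470 for Parp1 and -0.0443 to 0.0203 for Parp8 with SN-011. With 2 libraries per group, a difference that was not called is not shown to be absent.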

Other observations

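Dtx3l and Parp9 start head to head, and the ratio of their counts per exonic base that no other gene covers was taken in each library after their values were seen. It was 1.45 and 1.38 in WT, 1.26 and 1.24 in Trex1-KO, 1.503 and 1.33 with H151, and 1.39 and 1.35 with SN-011, so both Trex1-KO libraries had the lowest ratios. The ratio of Parp14 to Dtx3l on the same scale was 1.36 and 1.32 in WT, 1.70 and 1.51 in Trex1-KO, 1.28 and 1.24 with H151, and 1.16 and 1.24 with SN-011, so both Trex1-KO libraries had the highest. The ratio of Parp14 to Parp9 was 1.97 and 1.82 in WT, 2.14 and 1.87 in Trex1-KO, 1.93 and 1.66 with H151, and 1.61 and 1.67 with SN-011, so Trex1-KO overlapped WT and H151 there. These ratios are given as values, and no test was run on them.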
